A study of Homo sapiens with 12 samples.

Results

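The 10 genes described here build or furnish the cornified envelope of squamous epithelium, out of 33514 gene symbols in the count tables. They are SPRR1A, SPRR1B, SPRR2A, SPRR2D, SPRR3, IVL, TGM1, CNFN, SBSN and PI3, taken by symbol from the tables of the 3 lines. The cells were SCC1, SCC6 and SCC25, established lines of head and neck squamous carcinoma (HNSCC), each profiled by droplet-based single-cell RNA-seq (scRNA-seq). Each line had 2 untreated samples, given phosphate-buffered saline (PBS) daily for 5 days from 24 h after seeding, and 2 samples given cetuximab, which is an antibody against the EGF receptor (EGFR), daily at 100 nM over the same time. No allele or transgene was introduced, and each line stands for 1 tumour. All 6 groups grew in DMEM and Ham's F12 medium with fetal bovine serum. The comparison asks how EGFR blockade moved these genes before resistance arose.

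In stratified epithelium, keratinocytes that leave the basal layer stop dividing and assemble an envelope under the plasma membrane. Involucrin and the small proline-rich (SPRR) proteins are laid down as precursors and are joined by transglutaminases into an insoluble shell. EGFR signalling is active mainly in basal cells, and this layering is disturbed in squamous carcinoma. AP-1, a dimer of FOS and JUN proteins that EGFR signalling feeds, is a known regulator of several of these genes.

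Promoter sequences from RefSeq (GRCh38.p14, 250 bases before to 50 bases after the gene start) were at hand for 7 of the 10 members, all but SPRR2D, TGM1 and PI3. The genes themselves fall into a cluster on chromosome 1 (the 5 SPRR genes and IVL, within 152908546 to 153057512), while TGM1 lies on chromosome 14, CNFN and SBSN on chromosome 19 and PI3 on chromosome 20. The letters TGANTCA, the AP-1 motif, were searched on both strands and were found in 6 of the 7 members, against 7.71% of 35116 promoters. The promoters of SPRR1B, SPRR3 and IVL are shown as examples of precursors, with those letters in capitals. That of CNFN, the 1 promoter without a match, is shown beside them. Strand is + for the first 3 and - for CNFN.
SPRR1B, chr1:153030953-153031252: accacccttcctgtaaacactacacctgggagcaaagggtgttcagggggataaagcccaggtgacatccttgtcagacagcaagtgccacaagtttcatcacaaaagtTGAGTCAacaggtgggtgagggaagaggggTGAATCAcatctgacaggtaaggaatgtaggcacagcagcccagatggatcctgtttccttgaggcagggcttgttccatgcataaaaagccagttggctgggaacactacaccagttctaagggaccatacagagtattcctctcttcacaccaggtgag
SPRR3, chr1:153001499-153001798: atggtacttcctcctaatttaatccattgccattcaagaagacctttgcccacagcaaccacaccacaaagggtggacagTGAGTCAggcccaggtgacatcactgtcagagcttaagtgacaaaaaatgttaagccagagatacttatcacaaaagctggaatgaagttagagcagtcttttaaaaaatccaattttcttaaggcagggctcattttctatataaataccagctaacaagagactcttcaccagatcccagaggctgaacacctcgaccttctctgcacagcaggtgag
IVL, chr1:152908296-152908595: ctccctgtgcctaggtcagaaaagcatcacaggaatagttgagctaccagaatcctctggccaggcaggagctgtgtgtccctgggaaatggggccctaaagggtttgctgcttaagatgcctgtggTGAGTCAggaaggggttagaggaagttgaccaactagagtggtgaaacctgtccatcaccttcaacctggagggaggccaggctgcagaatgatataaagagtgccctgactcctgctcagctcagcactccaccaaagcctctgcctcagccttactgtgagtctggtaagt
CNFN, chr19:42390248-42390547: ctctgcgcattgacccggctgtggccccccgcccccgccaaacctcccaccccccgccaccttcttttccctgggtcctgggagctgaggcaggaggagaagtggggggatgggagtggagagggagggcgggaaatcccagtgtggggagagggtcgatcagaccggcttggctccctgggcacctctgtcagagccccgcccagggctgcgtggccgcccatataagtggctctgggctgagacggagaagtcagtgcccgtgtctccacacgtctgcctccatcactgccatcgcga

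In SPRR1B the AP-1 letters began 141 and 111 bases before the gene start, in SPRR3 170 bases and in IVL 123 bases before it. SBSN also held 2 matches, SPRR1A and SPRR2A 1 each. The letters TATAAA were present in 4 of the 7 promoters (11.5% of all), those of SPRR1A, SPRR2A, SPRR3 and IVL. CACCC, read by KLF factors, was present in 6 of 7 against 59.9% of all, and the grainyhead letters AACCGGTT in none of the 7 and in 0.134% of all. A CACCC match shared 2 bases with an AP-1 match in SPRR1B and in SBSN, where the letters run into each other. A match is a description of the sequence only.

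The tables held 23914 cells, 961 to 2854 per sample, and 57057402 to 112170073 unique molecular identifiers (UMIs) per sample. Counts of UMIs were summed per sample and are given as CPM, that is scaled to the total UMIs of the sample by the usual factor. Between replicates, 3 to 10 cell barcodes recurred, and between groups 1 to 13. The keratinocyte and squamous markers KRT5, KRT14, KRT17, TP63, SFN and KRT6A were all detected, with a summed level of 715 to 915 CPM in untreated SCC6 and 6417 to 11292 CPM in the untreated samples of the other lines. All 6 reached 1 CPM except 1 of them in untreated SCC6, and their sum was 2280 to 2889 CPM in treated SCC6. Of 6 fibroblast markers, 1 reached 1 CPM in untreated and 3 in treated SCC6, with sums of 0.947 to 2.98 and 23.1 to 27.8 CPM. The fibroblast sums were 7.51 to 8.61 CPM in untreated and 17.6 to 18.4 CPM in treated SCC1, and 19.6 to 37.7 and 43.5 to 80.3 CPM in SCC25, so that they lay higher after cetuximab in each line. Leukocyte markers summed to 12.3 to 14.1 CPM in untreated and 9.20 to 12.3 CPM in treated SCC1, to 2.43 to 4.88 and 1.43 to 3.27 CPM in SCC25 and to at most 0.200 CPM in SCC6. Endothelial markers summed to at most 0.716 CPM in any sample. The share of cells with 5 or more UMIs of 12 mitotic genes was 45.6% to 78.7% in untreated and 24.5% to 60.2% in cetuximab-treated samples, at 15000 UMIs per cell. The part of these markers and shares in the results was not tested.

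The envelope genes were rare transcripts in all 3 lines. SPRR1A was nearly silent, with 3 UMIs in all samples together, and SPRR2A had 31, so that neither passed the filter on low counts. The other 8 members passed it, with totals over the 12 samples from 153 UMIs for SBSN to 6237 for CNFN. UMIs count captured 3′ ends, so CPM values do not scale with the length of a gene. SPRR genes are related copies, and those of the SPRR2 group are near-identical. The treatment of reads shared between copies is not given in the sources used here. SPRR counts are therefore uncertain, above all those of the SPRR2 group.

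**Figure D1:**
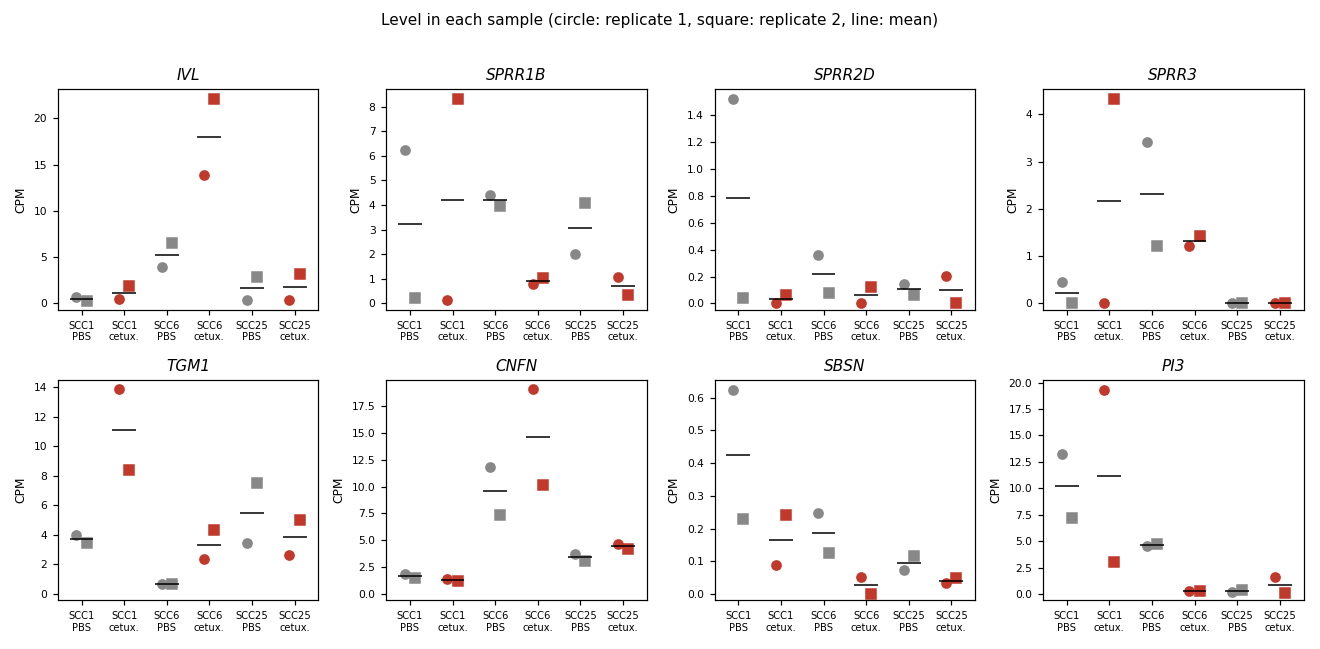
Level (CPM, linear axis) of the 8 members that passed the filter in each of the 12 samples, with PBS in grey and cetuximab in red; circles are replicate 1, squares replicate 2 and lines the mean of 2. TGM1 and IVL in SCC6 lie higher in both cetuximab samples, PI3 in SCC6 lies lower in both, and SPRR1B in SCC1 is high in 1 sample of each group.

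IVL encodes involucrin, a scaffold precursor of the envelope. In SCC6 it stood at 3.99 and 6.55 CPM in the untreated replicates 1 and 2 and at 13.9 and 22.1 CPM after cetuximab, so that both treated samples lay above both untreated ones. The ratio of cetuximab to PBS was 3.48 in replicate 1 and 3.37 in replicate 2. In SCC25 it stood at 0.371 and 2.89 CPM untreated and at 0.363 and 3.21 CPM after cetuximab. The SCC25 values followed the replicate number, not the treatment, with ratios of 0.981 and 1.11. In SCC1 it stood at 0.688 and 0.294 CPM untreated and at 0.438 and 1.85 CPM after cetuximab, with overlapping groups.

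By edgeR's quasi-likelihood test with Benjamini-Hochberg adjustment over 17897 genes (FDR), IVL in SCC6 had a log2 fold change of 1.55 ± 1.01 (SE) and an FDR of 0.433. Replicate numbers paired the samples, and with the number as a block within lines the change was 1.55 ± 0.43 with an FDR of 0.0383. In SCC25 the log2 fold change was 0.06 ± 1.02 (95% interval -2.21 to 2.33), and in SCC1 1.26 ± 1.13.

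The share of cells with an IVL UMI moved with the level in SCC6. At 15000 UMIs per cell it was 5.81% and 8.62% in untreated and 17.1% and 26.7% in treated cells. The highest share of cells with a UMI of a gene that these lines should lack was 0.137% (HBB), measured the same way in SCC25. Positive SCC6 cells carried 1.08 and 1.17 UMIs of IVL on average untreated, and 1.21 and 1.30 after cetuximab. At full depth, 16.1% of untreated and 40.7% of treated SCC6 cells had a UMI of IVL (means of 2), from median depths of 24078.5 to 50156 UMIs per cell in the 4 samples.

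SPRR1B, a proline-rich precursor of cornifying and stressed epithelium, differed widely between replicates of SCC1. There the untreated replicates held 6.24 and 0.239 CPM and the treated ones 0.123 and 8.30 CPM. The high samples were therefore 1 in each group, and opposite replicate numbers. In SCC6 the gene stood at 4.42 and 3.97 CPM untreated and at 0.776 and 1.03 CPM after cetuximab, with no overlap. In SCC25 it stood at 2.01 and 4.10 CPM untreated and at 1.06 and 0.325 CPM after cetuximab, again with both treated samples below both untreated ones. The level with PBS was 5.70 and 3.84 times that with cetuximab in replicates 1 and 2 of SCC6, and 1.91 and 12.6 times in SCC25. Without the cell richest in SPRR1B, SCC25 replicate 2 stood at 1.57 CPM untreated and 0.287 CPM treated. In a fit without the cell of each sample with most UMIs of the 10 members together, the log2 fold change in SCC25 was -1.37 ± 1.07. The log2 fold changes, -2.44 ± 1.47 in SCC6 (FDR 0.395) and -2.21 ± 1.47 in SCC25 (FDR 0.965), did not pass the edgeR test. In a fit of the 4 SCC6 samples alone the gene did pass.

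SPRR3, a precursor typical of mucosal epithelium, had no UMI in any of the 4 SCC25 samples. In the untreated SCC25 samples, 3 UMIs per library would be 0.0319 CPM on average. In untreated SCC6 the gene stood at 3.42 and 1.21 CPM, and the mean of 2.31 CPM was at least 72.5-fold higher than that limit. In treated SCC6 it stood at 1.21 and 1.42 CPM, within the range of the untreated replicates. In treated replicate 2, 1 cell held 48.4% of the SPRR3 UMIs. Without the cell richest in SPRR3, the gene stood at 3.30 and 0.973 CPM in untreated and at 1.12 and 0.735 CPM in treated SCC6. In SCC1 it stood at 0.448 and 0 CPM untreated and at 0 and 4.31 CPM after cetuximab, so that 1 sample of each group had the gene at 0. No change with cetuximab passed the test, with an FDR of 0.771 in SCC6 and 0.693 in SCC1.

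SPRR2D, a further small proline-rich precursor, reached 1.52 CPM in untreated SCC1 replicate 1 and lay at or below 0.359 CPM in the other 11 samples. SPRR2A, its near copy, did not exceed 0.0697 CPM in any sample. SPRR1A was detected only in untreated SCC6, at 0.0199 and 0.00973 CPM. Of the SPRR genes, SPRR1B and SPRR3 thus carried nearly all UMIs, 2827 and 1055, in these lines.

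A single cell could hold most of the UMIs of an SPRR gene in its sample. In untreated SCC1 replicate 1, 348 of the 390 SPRR1B UMIs (89.2%) came from 1 of 1263 cells, and in treated SCC1 replicate 2, 580 of 654 (88.7%) from 1 of 1380 cells. Without its richest cell, SPRR1B in those samples fell to 0.672 and 0.939 CPM. Of the SPRR3 UMIs of treated SCC1 replicate 2, 92.1% were in 1 cell, and of the SPRR2D UMIs of untreated replicate 1, 93.7%. In SCC25, 284 of the 460 SPRR1B UMIs of untreated replicate 2 (61.7%) were in 1 cell. In SCC6 the richest cell held 4.05% and 9.07% of the SPRR1B UMIs untreated and 6.78% and 29.0% after cetuximab. Of the 128 SPRR3 UMIs of treated SCC6 replicate 2, 62 (48.4%) were in 1 cell.

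**Figure D2:**
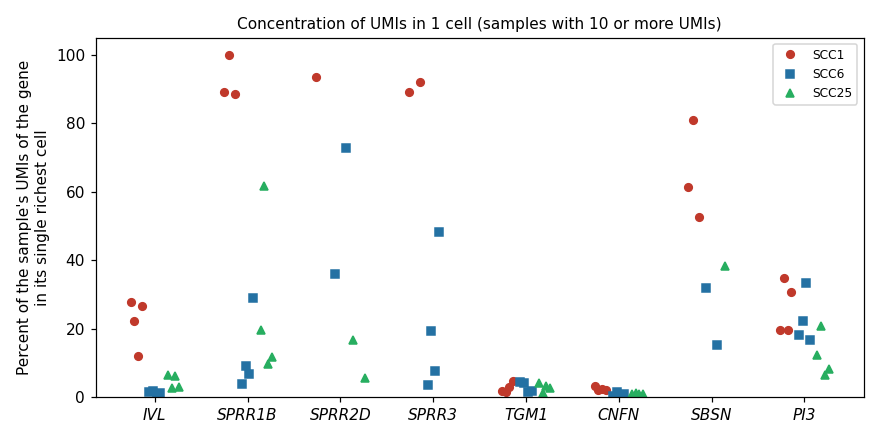
Percent of a sample's UMIs of each member that came from its single richest cell (y axis, linear), for samples with 10 or more UMIs of the gene; each point is a sample and colour and shape give the line. TGM1 and CNFN stay under 5% in every sample shown, whereas SPRR1B in SCC1 lies between 88.7% and 100.0% in the 3 samples shown.

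The 2 richest SCC1 cells made several members at once. The cell of untreated replicate 1 gave 664 of its 14630 UMIs (4.54%) to the members: 348 to SPRR1B, 162 to PI3, 89 to SPRR2D, 25 to SPRR3, 24 to SBSN and 12 to IVL. It also held 175 UMIs of KRTDAP, 103 of SLPI, 37 of CDSN and 19 of SPINK5, genes of the upper epidermis. KRT5, the basal keratin, was at 0 UMIs in it, KRT14 at 2 and the 12 mitotic genes at 0. The cell of treated replicate 2 gave 1009 of 29551 UMIs (3.41%) to the members, with 580 of SPRR1B, 313 of SPRR3, 74 of PI3 and 31 of IVL, but 1 UMI of KRTDAP and none of CDSN. Both had fewer UMIs than the median of their sample, 45993 and 51885.5.

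The richest SCC25 cell, from untreated replicate 2, differed in content. It gave 284 UMIs to SPRR1B and only 6 to the other 9 members together, while it carried 296 UMIs of KRT5 and 471 of KRT14. By rank correlation over 1000 genes, the first of the SCC1 cells was closest to its own line (Spearman's rho 0.476 with SCC1, 0.337 with SCC6 and 0.373 with SCC25), as was the SCC25 cell (0.738 with SCC25). These are descriptions of single cells, each from 1 sample.

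Cells with 0.1% or more of their UMIs in the 10 members were few. Untreated SCC1 held 7 and 2 of them in replicates 1 and 2, and treated SCC1 3 and 2. Untreated SCC6 held 1 and 2 and untreated SCC25 1 and 1, and the treated samples of both lines held 0 (0 of 2854, 1653, 1999 and 2027 cells). In SCC1 they carried between 18.2% and 64.6% of all member UMIs of a sample. In 58.3% to 89.8% of cells, depending on the sample, no member was detected at 15000 UMIs per cell.

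TGM1, transglutaminase 1, is the membrane-bound enzyme that cross-links the precursors. In SCC1 it stood at 4.0 and 3.44 CPM untreated and at 13.8 and 8.36 CPM after cetuximab. In SCC6 it stood at 0.658 and 0.671 CPM untreated and at 2.35 and 4.34 CPM after cetuximab. In both lines both treated samples lay above both untreated ones, with ratios of 3.46 and 2.43 in SCC1 and of 3.58 and 6.47 in SCC6. In SCC25 it stood at 3.42 and 7.53 CPM untreated and at 2.65 and 5.03 CPM after cetuximab. There the ratio was 0.773 and 0.667, and the groups overlapped.

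TGM1 in SCC6 was the 1 of 8 tested members that passed the edgeR test within a line, with a log2 fold change of 2.11 ± 0.50 (95% interval 1.00 to 3.21) and an FDR of 0.0457. Of all genes tested in SCC6, 3.81% passed. The FDR was 0.00313 with the replicate block, where 4 of 8 members and 20.1% of all genes passed. It rose to 0.0581 without the 5% of cells with most UMIs, to 0.0599 in the SCC6 samples alone, and to 0.0601 to 0.273 when any 1 SCC1 or SCC6 sample was left out. In SCC1 the log2 fold change of TGM1 was 1.53 ± 0.47 with an FDR of 0.347, and 1.49 ± 0.25 with an FDR of 0.0181 with the replicate block. There the block gave calls for 4.45% of all genes, against 0.0168% without it. In SCC25 the log2 fold change was -0.56 ± 0.46 (95% interval -1.59 to 0.46).

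An interaction term of line and treatment asked whether the lines differed in the change of TGM1. Without the block the FDR was 0.439 and no gene of 17897 passed (0.0%), although 1318 had an unadjusted p under 0.05. With the block within lines the FDR was 0.0312, and 1.29% of all genes passed. With a block shared by the lines it was 0.145. TGM1 was the only member to pass with the block. DESeq2, which called 1 member and 1.54% of all genes in this test, called TGM1 as well.

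More cells had a TGM1 UMI after cetuximab in the lines in which its level was higher. At 15000 UMIs per cell the share in SCC1 was 5.35% and 5.12% untreated and 19.4% and 11.1% treated, and in SCC6 0.867% and 0.944% untreated and 2.82% and 5.86% treated. In SCC25 it was 4.62% and 9.47% untreated and 3.49% and 6.97% treated. The mean number of UMIs per positive cell lay between 1.00 and 1.33 in all 12 samples. Single cells contributed little, with at most 4.70% of a sample's TGM1 UMIs.

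**Figure D3:**
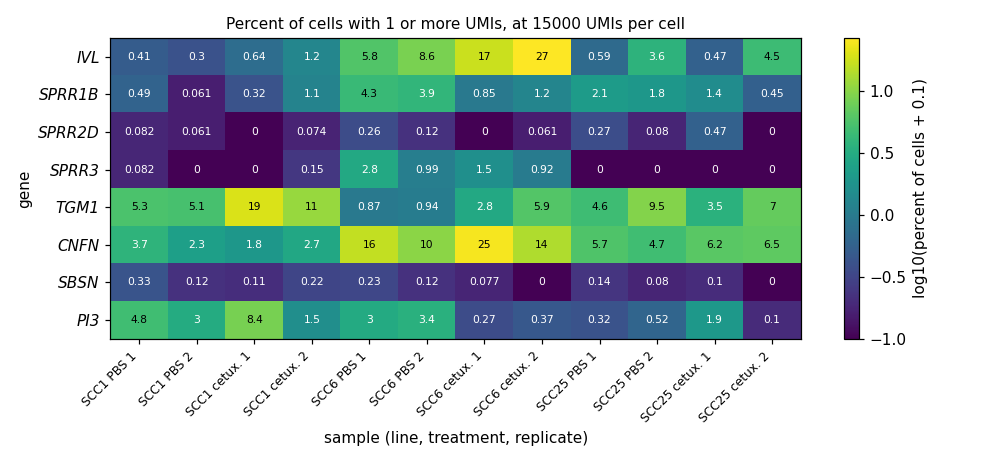
Percent of cells with 1 or more UMIs of each member (rows) in each sample (columns) after thinning to 15000 UMIs per cell; colour is on a log10 scale and the numbers in the fields are percentages. TGM1 rises from 5.12% and 5.35% to 11.1% and 19.4% in SCC1, IVL reaches 26.7% in treated SCC6, and SPRR3 is at 0 in the 4 SCC25 samples.

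CNFN, cornifelin, is a late envelope protein and was spread over many cells, with at most 3.39% of a sample's UMIs in 1 cell. Untreated SCC6 held 11.8 and 7.40 CPM, untreated SCC25 3.72 and 3.08 CPM and untreated SCC1 1.89 and 1.45 CPM. The 3 lines did not overlap. After cetuximab it stood at 19.1 and 10.2 CPM in SCC6, at 4.68 and 4.23 CPM in SCC25 and at 1.37 and 1.24 CPM in SCC1. The ratios to PBS were 1.62 and 1.37 in SCC6, 1.26 and 1.37 in SCC25 and 0.724 and 0.859 in SCC1. None passed the test, with log2 fold changes of 0.36 ± 0.32 in SCC6, 0.36 ± 0.32 in SCC25 and -0.39 ± 0.34 in SCC1. The share of CNFN-positive cells was 15.8% and 9.98% in untreated SCC6 and 3.70% and 2.26% in untreated SCC1.

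SBSN, suprabasin, is secreted by cells above the basal layer and was the rarest tested member. In SCC6 it stood at 0.249 and 0.126 CPM untreated and at 0.0526 and 0 CPM after cetuximab, from 25, 13, 4 and 0 UMIs. In SCC25 it stood at 0.0741 and 0.116 CPM untreated and at 0.0341 and 0.0478 CPM after cetuximab. In SCC1 it stood at 0.624 and 0.228 CPM untreated and at 0.0876 and 0.241 CPM after cetuximab, and 61.5% and 81.0% of the untreated UMIs were in 1 cell of each sample. Across the 3 lines the log2 fold change was -1.76 ± 0.52 with an FDR of 0.0803, a change that DESeq2 called (1 of 8 members, 9.9% of all genes). In SCC6 the FDR was 0.119, and 0.0496 with the replicate block (log2 fold change -3.16 ± 0.95).

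PI3 encodes elafin, an elastase inhibitor that transglutaminases can anchor in the envelope. In SCC6 it stood at 4.54 and 4.73 CPM untreated and at 0.316 and 0.267 CPM after cetuximab, 14.4 and 17.7 times lower in replicates 1 and 2. The 2 groups did not overlap. In SCC1 it stood at 13.2 and 7.21 CPM untreated and at 19.3 and 3.05 CPM after cetuximab, which enclosed the untreated values. In SCC25 it stood at 0.198 and 0.428 CPM untreated and at 1.59 and 0.115 CPM after cetuximab, likewise enclosing them.

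In SCC6 the log2 fold change of PI3 was -4.22 ± 1.10 with an FDR of 0.0642, just above the threshold. It passed when 1 of the treated SCC1 or SCC25 samples was left out (FDR 0.0228 to 0.0492). With the replicate block it was -4.22 ± 0.87 with an FDR of 0.0140, and DESeq2 also called it, with 2 of 8 members (TGM1 and PI3) and 9.34% of all genes called. The share of PI3-positive cells in SCC6 was 2.98% and 3.37% untreated and 0.270% and 0.366% treated. The interaction of line and treatment had an FDR of 0.481 for PI3, and 0.147 with the block, so a difference between lines was not shown. The richest 1% of cells held 63.6% of the PI3 UMIs in untreated SCC6 and 79.7% in untreated SCC1, against 49.0% and 16.3% for TGM1 (means of 2 samples).

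**Figure D4:**
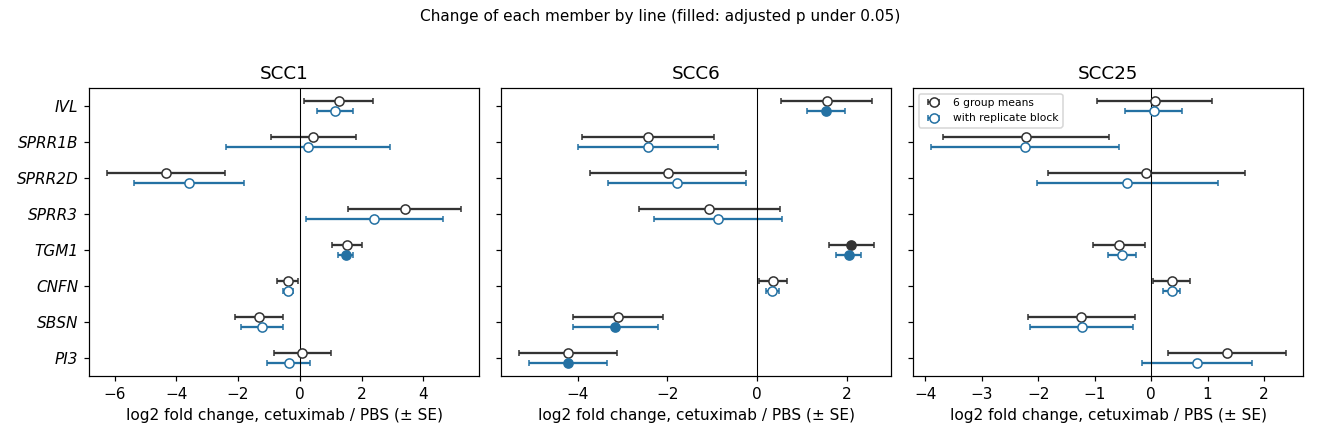
Log2 fold change of cetuximab over PBS (x axis) with its SE for the 8 tested members in each line, without (black) and with (blue) the replicate block; filled points have an FDR under 0.05. TGM1 is filled in SCC6 in both fits and in SCC1 with the block, and IVL, SBSN and PI3 are filled in SCC6 with the block; SPRR3 is absent from SCC25, where it had no UMI.

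Within lines, cetuximab thus gave calls for 0 of 8 members in SCC1, 1 of 8 in SCC6 and 0 of 8 in SCC25. The backgrounds were 0.0168%, 3.81% and 0.0% of all genes. An unadjusted p under 0.05 was reached by 2, 3 and 0 of the 8 members, and by 1570, 3561 and 1041 of all 17897 genes. In SCC1 the 2 were TGM1 and SPRR2D, and 93.7% of the SPRR2D UMIs of untreated replicate 1 were in 1 cell. In SCC25 no gene of 17897 was called by edgeR, though 1041 had an unadjusted p under 0.05. DESeq2 called 101 genes there (0.564%) and the fit with the block 175 (0.978%), none of them a member. In SCC6 the replicate block left 2 members higher (IVL and TGM1) and 2 lower (SBSN and PI3). Across lines 0 of 8 members and 3.67% of all genes passed, and with the block 0 of 8 members and 11.6%.

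Counted by separation alone, both treated samples lay above both untreated ones for 2 of 8 members in SCC6 (IVL and TGM1), for 1 in SCC1 (TGM1) and for 1 in SCC25 (CNFN). The same held for 37.4%, 24.7% and 16.3% of all tested genes. Both treated samples lay below both untreated ones for 3 of 8 members in SCC6 (SPRR1B, SBSN and PI3), for 2 in SCC25 (SPRR1B and SBSN) and for 1 in SCC1 (CNFN), against 11.6%, 12.9% and 17.3% of all tested genes.

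The untreated lines differed in the level of several members, and of the tested members only SPRR3 was undetected in a line (SCC25). CNFN was lower in SCC1 than in SCC6 by a log2 difference of -2.88 ± 0.35 (FDR 0.000130) and higher in SCC6 than in SCC25 by 1.66 ± 0.33 (FDR 0.00292). TGM1 was higher in SCC1 than in SCC6 by 2.14 ± 0.50 on the log2 scale (FDR 0.00653), and SCC6 minus SCC25 was -2.92 ± 0.51 (FDR 0.00134). SCC1 and SCC25 differed in TGM1 by -0.78 ± 0.47 (FDR 0.208). PI3 was higher in SCC1 than in SCC25 by 4.76 ± 1.11 (FDR 0.00655) and higher in SCC6 than in SCC25 by 3.98 ± 1.08 (FDR 0.0138), while SCC1 and SCC6 differed by 0.78 ± 0.92 (FDR 0.534). IVL was lower in SCC1 than in SCC6, with a log2 difference of -3.79 ± 1.16 (FDR 0.0248). The IVL call was lost without either untreated SCC1 sample or untreated SCC6 replicate 2 (FDR 0.0768 to 0.142), and the PI3 call between SCC6 and SCC25 without untreated SCC25 replicate 1 (FDR 0.0809).

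In all, 3 of 8 members passed between untreated SCC1 and SCC6, 2 between SCC1 and SCC25 and 4 between SCC6 and SCC25, SPRR3 included. The SPRR3 call was lost without untreated SCC6 replicate 1 or either untreated SCC25 sample (FDR 0.0943 to 0.108), and the CNFN call between SCC1 and SCC25 without either untreated SCC1 sample or untreated SCC25 replicate 1 (FDR 0.0534 to 0.0970). The backgrounds were 40.2%, 40.8% and 40.9% of all genes, so these counts do not set the members apart from other genes. With the block the counts were 3, 3 and 5, against 57.5%, 58.8% and 58.1% of all genes. SBSN was added between SCC1 and SCC25 (FDR 0.0435) and IVL between SCC6 and SCC25 (log2 difference 2.45 ± 0.49, FDR 0.00269). Each untreated line enters 2 of these 3 comparisons.

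Whether the members were made by cells outside mitosis was asked within each sample, by setting cells with no UMI of 12 mitotic genes against cells with 5 or more. Of the 8 members, 4 had enough UMIs to be tested, and all 4 were higher in the cells without mitotic transcripts. The log2 differences were 2.39 ± 0.51 for PI3 (FDR 0.000389), 1.17 ± 0.32 for IVL (FDR 0.00410), 0.80 ± 0.14 for CNFN (FDR 5.71e-05) and 0.52 ± 0.17 for TGM1 (FDR 0.0133). Of 11725 genes tested, 55.9% passed and 31.8% passed and were higher. TGM1 did not pass when 3 or more UMIs marked the mitotic class (FDR 0.0664), and 2 of the 4 passed without SCC25. PI3 had too few UMIs to be tested without SCC1, and IVL without SCC6. In untreated SCC1 replicate 1, 1 of the 94 cells without mitotic transcripts held 132 of the sample's 826 PI3 UMIs at full depth. How far such cells set the PI3 difference was not tested. The cells without mitotic transcripts made up 7.74% and 5.98% of untreated and 39.2% and 14.6% of treated SCC1 cells. In SCC6 they made up 6.22% and 2.13% of untreated and 10.1% and 5.06% of treated cells, and in SCC25 5.67% and 13.7% and 18.9% and 29.2%. The treated samples lay above the untreated ones in SCC1 and SCC25 and overlapped them in SCC6.

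The other genes of the envelope programme were read from lists. Of 5 further SPRR genes (SPRR2B, SPRR2E, SPRR2F, SPRR2G and SPRR4) none had enough UMIs to be tested. Of 27 other precursors and late proteins in the tables, 14 were tested, and in SCC6 1 passed, lower (SLPI), against 3.81% of all genes. With the block 4 passed in SCC6, 1 higher (TCHH) and 3 lower (SLPI, CSTA and SCEL), against 20.1% of all genes. None passed in SCC1 or SCC25 in either fit. The median log2 fold change of the 14 was 0.02 in SCC6, -0.02 in SCC1 and -0.21 in SCC25, beside medians of all genes of 0.00, 0.00 and -0.01.

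SLPI, a secreted protease inhibitor related to elafin, stood at 502 and 398 CPM in untreated SCC6 and at 77.9 and 81.3 CPM after cetuximab. The groups did not overlap and the log2 fold change was -2.73 ± 0.48 (FDR 0.0167). In SCC25 it was 0.03 ± 0.45 and in SCC1 -0.18 ± 0.45. CSTA, cystatin A, a further precursor, fell in SCC6 by 1.12 ± 0.20 on the log2 scale with the block (FDR 0.00782) and had an FDR of 0.492 without it. With the block, the log2 fold change of CSTA was -0.77 ± 0.20 in SCC1 (FDR 0.0663) and -0.56 ± 0.20 in SCC25 (FDR 0.244). Across lines it was -0.82 ± 0.14 with the block (FDR 0.0127), and the FDR was 0.271 without it. CSTA was the 1 of the 14 to pass across lines with the block, against 11.6% of all genes. SCEL, sciellin, had -1.71 ± 0.35 and TCHH, trichohyalin, 1.35 ± 0.36 in SCC6 with the block.

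Of the other cross-linking enzymes, TGM2 was tested and TGM3 and TGM5 were too rare. TGM2, the tissue transglutaminase, stood at 2.81 and 3.09 CPM in untreated and at 7.70 and 6.10 CPM in treated SCC6, and at 1.52 and 2.96 CPM in untreated and 3.20 and 9.44 CPM in treated SCC25. It did not pass without the block. With it, TGM2 was higher in SCC6 by 0.99 ± 0.19 (FDR 0.0101) and in SCC25 by 1.36 ± 0.19 (FDR 0.0232) on the log2 scale.

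All 16 regulators of late differentiation were tested. In SCC6, 5 passed, 2 higher, MAF among them, and 3 lower (ELF3, FOSL1 and CEBPB), against 3.81% of all genes, and with the block 8 passed, 2 higher and 6 lower, against 20.1%. None passed in SCC1 in either fit, and in SCC25 ELF3 passed with the block only. The median log2 fold change of the 16 was -1.03 in SCC6, -0.07 in SCC1 and -0.41 in SCC25.

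ELF3, an epithelial ETS factor that acts on SPRR promoters, stood at 215 and 142 CPM in untreated SCC6 and at 42.6 and 45.7 CPM after cetuximab. Its log2 fold change was -2.26 ± 0.53 in SCC6 (FDR 0.0463), and with the block -2.22 ± 0.20 in SCC6 (FDR 0.000714) and -1.12 ± 0.19 in SCC25 (FDR 0.0413). The interaction had an FDR of 0.709, and 0.0354 with the block. MAF, a bZIP transcription factor, rose in SCC6 from 0.0199 and 0.0973 CPM to 1.63 and 0.556 CPM (FDR 0.0328). CEBPB fell by 0.92 ± 0.21 on the log2 scale in SCC6 (FDR 0.0414). PRDM1 passed with the block only, lower in SCC6 (-2.27 ± 0.36, FDR 0.00539).

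FOSL1, a FOS-family subunit of AP-1 that lay outside the 5 regulators to be named and was chosen after its values were seen, fell in SCC6. It stood at 81.3 and 40.7 CPM untreated and at 3.28 and 15.1 CPM after cetuximab, with a log2 fold change of -2.97 ± 0.70 (FDR 0.0456). In SCC25 it was 0.50 ± 0.65 and in SCC1 -0.85 ± 0.66, neither past the test.

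**Figure D5:**
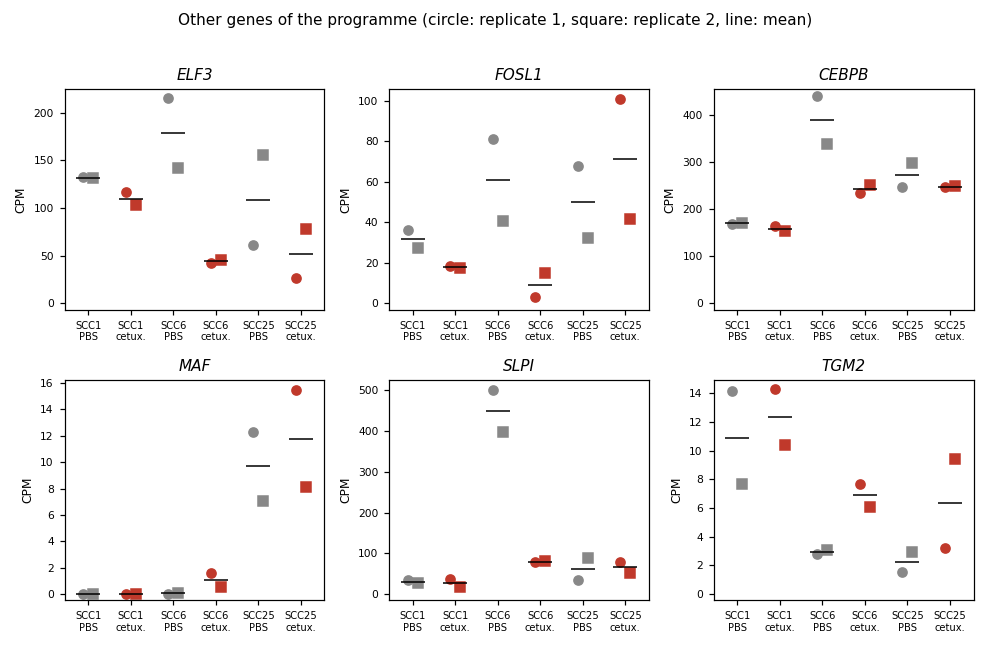
Level (CPM, linear axis) of 4 regulators (ELF3, FOSL1, CEBPB and MAF), the protease inhibitor SLPI and the enzyme TGM2 in each of the 12 samples, with the same symbols as for the members. In SCC6 the treated samples lie below the untreated ones for ELF3, FOSL1, CEBPB and SLPI and above them for MAF and TGM2.

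The genes whose pattern over the 12 samples was most like the mean of the members, after each line's mean was taken off, were CDKN2D, CYSRT1, WDR5, FIBP and GDF15 (Pearson's r 0.719, 0.703, 0.673, 0.665 and 0.646, among 5314 genes of 20 CPM or more). The points share libraries and depth, and r is a description. The mean joins members that moved in opposite directions, such as TGM1 and PI3 in SCC6, so it does not stand for a shared change. It also takes in SPRR values of SCC1 that rest on 1 cell. CDKN2D, a cyclin-dependent kinase inhibitor, stood at 65.2 and 61.8 CPM in untreated and 56.8 and 58.3 CPM in treated SCC6. GDF15, a stress-induced cytokine, stood at 459 and 69.2 CPM in untreated and 21.4 and 33.5 CPM in treated SCC6.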

How the data were processed

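The deposited tables, 1 per line, held raw counts of UMIs per gene and cell. Per the labels and the methods of the study, the authors used the 10x Genomics Chromium 3′ v2 kit, Cell Ranger and the GRCh38 build (the version of Cell Ranger is not given in the sources used here). The deposited counts were not normalised. Groups and replicate numbers came from the sample labels. The members, lists and tests were chosen with earlier results of these data known. The text names all members, up to 5 genes per list by p, and the 5 genes most alike. Symbols on more than 1 row (24) were added. The result of 1 listed regulator is not reported here.

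Counts were summed per sample and tested with edgeR 4.0.16 (R 4.3.3): TMM, filterByExpr, 6 group means, 6 residual degrees of freedom, two-sided p adjusted by Benjamini-Hochberg (FDR, threshold 0.05). Alternatives were DESeq2 1.42.0, a replicate block and others given below. Samples of the same number deviated together (Pearson r 0.649 in SCC1, 0.614 in SCC6 and 0.710 in SCC25, over 5314 genes), so the numbers were taken to pair the samples. Whether replicates were separate cultures is not given, and p-values then measure only the spread between samples, which may be technical.

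For shares of positive cells, each cell was thinned to 15000 UMIs, and 851 shallower cells were left out (14 to 262 per sample) and 23063 kept. No doublet caller was run. The scripts were tested on simulated data. In the simulated SCC6 comparison, 25% of genes changed 2-fold and 90% of genes changed 4-fold were called. Of the calls, 4.17% were unchanged genes. A change that did not pass is therefore not shown to be absent.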

Additional observations from a re-analysis of the deposited data

Results flagged for a closer look

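The change of TGM1 with cetuximab differed between the 3 lines in the fit with the replicate block (edgeR interaction test, FDR 0.0312). It was higher in both pairs in SCC1 and SCC6 and lower in both pairs in SCC25. The FDR was 0.439 without the block and 0.145 with a block shared by the lines. Groups of 2 samples were too small to single out a sample far from the others.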

How the results depend on the processing

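With no filter on low counts all 10 members were tested, otherwise 8 or fewer. In SCC6, where 1 of 8 was called, 2 were called by DESeq2, 3 with no filter on low counts, 2 with a replicate block shared by lines, 4 with the replicate block within lines, 2 in the 4 samples of the line alone (PI3 and SPRR1B) and 0 without the 5% of cells with most UMIs. The shares of all genes called in SCC6 were, in that order, 9.34%, 4.76%, 13.8%, 20.1%, 1.66% and 3.58%, against 3.81%. In SCC1, 1 member (TGM1) was called with no filter and 1 with the block within lines, against 0. Of all genes, 0.938% and 4.45% were called in these 2 fits of SCC1, against 0.0168%. Across lines 1 (SBSN) was called by DESeq2 and 1 with no filter (9.9% and 4.03% of all genes, against 3.67%). For the interaction 1 (TGM1) was called by DESeq2, 2 with no filter (TGM1 and PI3) and 1 with the block within lines. The shares of all genes were 1.54%, 0.958% and 1.29%, against 0.0%. Between untreated SCC1 and SCC6, 5 were called without the richest cell of each sample, against 3 (40.2% of all genes in both fits). That cell is the one with most UMIs of the 10 members together. With at most 5 UMIs of a gene per cell, 5 were called as well, beside 43.3% of all genes. Both settings were chosen after seeing the data. Between untreated SCC1 and SCC25, 5 of 10 were called with no filter (29.1% of all genes), against 2 (40.8%). Of the 4 members called higher in cells without mitotic transcripts, 2 were called without SCC25 (43.4% of all genes, against 55.9%). The cause was not tested.

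Leaving out each sample in turn gave 0 to 2 members called in SCC6, 0 to 1 across lines (TGM1, without SCC25 PBS replicate 2), 2 to 4 between untreated SCC1 and SCC6, 1 to 2 between untreated SCC1 and SCC25 and 2 to 4 between untreated SCC6 and SCC25. SPRR1B in SCC1 then ranged from -4.70 to 4.03 (log2 fold change, -4.70 without SCC1 cetuximab replicate 2), SPRR3 in SCC1 from -7.01 to 10.42 and across lines from -1.49 to 1.80, SPRR2D in SCC25 from -6.21 to 0.96, IVL in SCC1 from -0.18 to 1.93 and in SCC25 from -2.26 to 2.31, TGM1 in SCC25 from -1.12 to 0.20, CNFN in SCC6 from -0.15 to 0.79 and across lines from -0.037 to 0.21, and PI3 in SCC1 from -1.76 to 0.87 and in SCC25 from -1.48 to 2.25. Each of these crossed 0, and none was called. SPRR3 across lines (0.95) became -0.10 with the replicate block within lines, -0.65 with at most 5 UMIs of a gene per cell and -0.21 without the richest cells. SBSN in SCC1 (-1.32) became 0.0043 without the richest cells. PI3 in SCC1 (0.08) became -0.19 with the block shared by lines and -0.37 with the block within lines.

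Of 297 log2 fold changes under the other alternatives, 276 kept their direction and their side of the threshold. Over all genes, the calls rose from 3 to 274 (DESeq2), 243 (no filter), 133 (shared block), 797 (block within lines) and 17 (at most 5 UMIs) in SCC1, and to 0 in the line alone. In SCC6 they went from 682 to 1671, 1233, 2462 and 3589 in the first 4 of these and to 265 in the line alone, in SCC25 from 0 to 101, 128, 29 and 175, across lines from 656 to 1771, 1043, 2070 and 2073, and for the interaction from 0 to 276, 248, 18 and 230. Among the members, the block within lines changed no call other than those given. Of the named list genes, it also gave calls across lines for ELF3 (FDR 0.0843 without and 0.0339 with it) and TGM2 (0.136 and 0.0334). For the interaction it gave a call for PRDM1 (0.455 and 0.0386). With the block shared by lines, 5 members and 54.4% of all genes passed between untreated SCC6 and SCC25, against 4 members and 40.9%. Shares of positive cells moved beyond the replicate SD in 46 of 60 group values at full depth and in 33 of 60 with 2 or more UMIs. With totals of 153 to 6237 UMIs per member, 1 cell can decide a value of SPRR1B, SPRR2D, SPRR3 or SBSN in SCC1. The limit also reaches the other lines. The richest cell held 61.7% of the SPRR1B UMIs of untreated SCC25 replicate 2. In treated SCC6 replicate 2 it held 48.4% of the SPRR3 and 72.7% of the SPRR2D UMIs.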
